A study of Rattus norvegicus with 6 samples.

Results

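Cohesin, sororin, securin and separase are the proteins that hold sister chromatids together and then let them go, and their mRNAs were measured here in replicating and quiescent rat β-cells. The 10 genes were *Smc1a*, *Smc3*, *Rad21*, *Stag1*, *Stag2*, *Pds5b*, *Esco2*, *Cdca5* (sororin), *Pttg1* (securin) and *Espl1* (separase). They were taken from the array by the gene name that the array files give each probe. All 10 were present, with 18 probes among 45598, or 10 of the 27103 gene names on the array. The samples came from 3 islet preparations, each pooled from 4 young adult male Wistar rats. The dispersed cells of each preparation had been fixed and sorted by size, granularity and Newport Green, a zinc dye, into β-cells with and without EdU, a thymidine analogue taken up during DNA synthesis. EdU-positive cells are called replicating and EdU-negative cells quiescent, and every preparation gave 1 array of each, 6 in all. Islets of both groups had been cultured in EdU overnight at basal glucose, so the replicating gate holds cells that passed through S phase at any time in that culture.

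Cohesin is a ring of Smc1a, Smc3 and the kleisin Rad21, to which either Stag1 or Stag2 is bound, and Pds5 proteins regulate how long the ring stays on DNA. During S phase the acetyltransferase Esco2 modifies Smc3, and sororin then protects the ring from being removed. Securin keeps the protease separase inactive until the anaphase-promoting complex destroys securin, after which separase cuts Rad21 and the chromatids part. Outside division the ring also folds chromatin into loops, so its subunits are made in cells that do not divide, as most adult β-cells do not. Loss of securin in male mice is known to lower β-cell mass.

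Every ratio below is the log2 of replicating over quiescent cells, and a level is a normalized log2 signal, which can be compared between arrays for 1 probe but not between probes. The study selected genes by 2 criteria, an unadjusted p no larger than 0.05 and a log2 ratio of 1 or more in either direction, and genes that met both in a limma fit to all probes, with islet preparations as blocks, are called here. Standard errors, intervals and adjusted p-values come from that fit. No probe on the array had an adjusted p under 0.05 (0 of 45598, or 0%), while 4379 probes, or 9.60%, had an unadjusted p of at most 0.05. The 3 quiescent arrays were less alike than the replicating ones. Pearson's r across probes lay between 0.967 and 0.986 among the replicating arrays and between 0.654 and 0.867 among the quiescent arrays, where arrays 2 and 3 were least alike. Quiescent array 2 had r between 0.654 and 0.830 with every other array. It also had 1583 spots marked as outliers, against 252 to 299 on the others. Quiescent array 3 was closer to the replicating arrays (0.943 to 0.969) than to its own group (0.654 and 0.867). No spot was saturated. Of the 8 genes of a cycling check list, 8 were called higher in the replicating cells. Of 9 β-cell markers on the array, 9 were well above background on every array, 3 had a ratio above 0 and 1, *Mafa*, was called lower. Of all 27103 gene names, 21286 were well above background on every array and 42.0% had a ratio above 0. The share of probes well above background was 80.7% to 87.3% on the replicating and 85.6% to 98.4% on the quiescent arrays.

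Securin and separase had the largest ratios of the 10 genes, sororin and the ring or accessory subunits *Smc1a*, *Smc3*, *Rad21* and *Pds5b* were also called higher, and the STAG subunits and *Esco2* were not called. By the brightest probe of each gene, 7 of the 10 were called higher and 0 lower, where 4.24% of all gene names were called higher and 4.69% lower. Over single probes 11 of the 18 were called higher and 0 lower, against 4.44% and 4.18% of all probes. The median log2 ratio of the 10 was 1.77, against -0.13 over all gene names. In such pools of cells, a larger number of cells that make an mRNA and more of it per cell cannot be told apart. In 7 of the 10 every replicating array lay above every quiescent array, which held for 8.44% of all gene names, and 11 of the 18 probes were apart in this way, against 9.01% of all probes. In 8 of the 10 the ratio was above 0 in each of the 3 preparations, against 14.2% of all gene names. Without preparation 1, 3 genes stayed called, *Rad21*, *Pttg1* and *Espl1*. There *Smc1a* had a ratio of 1.10 (standard error 0.55), *Smc3* 2.12 (0.94), *Pds5b* 2.20 (0.89) and *Cdca5* 1.28 (0.77), each too uncertain to be called. Without preparation 2 the same 7 genes were called. Without preparation 3 there were again 7, with *Stag2* in and *Cdca5* out.

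**Figure D1:**
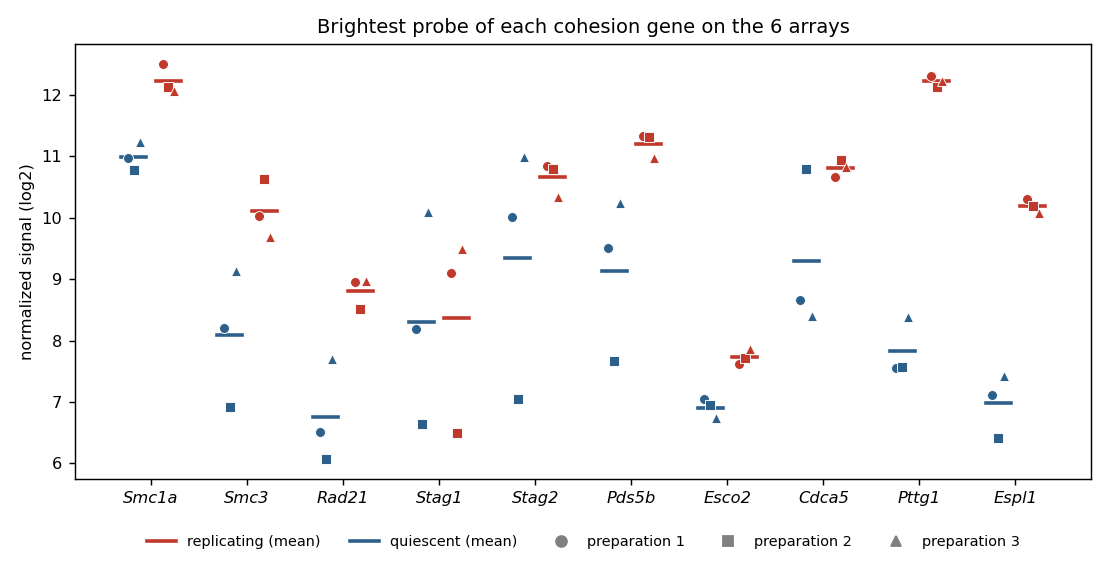
Normalized log2 signal of the brightest probe of each of the 10 genes on the 3 quiescent (blue) and 3 replicating (red) arrays, with the marker shape giving the islet preparation and the bar the group mean. The groups are apart for *Pttg1*, *Espl1*, *Rad21*, *Smc1a*, *Smc3*, *Pds5b* and *Esco2* and overlap for *Stag1*, *Stag2* and *Cdca5*; heights of different genes cannot be compared.

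Some markers of other cells moved with the groups. Of 10 fibroblast and stellate cell markers, 10 had a ratio above 0 and 4 were called higher, and their summed level (log2 of summed signals) was 13.78 to 15.31 on the replicating and 12.33 to 12.68 on the quiescent arrays. Of 7 alpha cell markers, 5 had a ratio above 0 and 2 were called, with a summed level of 14.47 to 16.47 against 12.52 to 14.11. The 2 PP cell markers summed to 12.14 to 13.16 against 11.25 to 11.89. The alpha marker *Irx1* was not well above background on any replicating array. Of 4 delta cell markers, 2 were called higher, *Sst* (1.74) and *Rbp4* (1.49), and in 3 every replicating array lay above every quiescent array. Of 7 immune cell markers, 2 were called higher, *Cd68* (1.32) and *Cd74* (1.48), as was 1 of the 2 PP, 1 of 8 acinar and 1 of 7 duct markers, and 0 of 7 endothelial markers. None of these was called lower. The summed levels of the delta, acinar, duct, endothelial and immune lists overlapped between the groups, although a sum mostly follows the brightest marker of its list. What part these cells had in the ratios of the cohesion genes was not tested.

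*Pttg1* encodes securin, the inhibitor and chaperone of separase. Its probe lies on chromosome 10 of the rat build rn4 from 28527480 to 28527539 and is printed on the array in 10 spots. Its level was 12.30, 12.13 and 12.22 on replicating arrays 1, 2 and 3 and 7.55, 7.56 and 8.38 on quiescent arrays 1, 2 and 3. The replicating arrays were close to each other, at 12.22 ± 0.09 (SD, n = 3), and every quiescent array lay far below them, at 7.83 ± 0.48 (SD, n = 3). This made a ratio of 4.39 (standard error 0.35, adjusted p = 0.0977 in limma), or 21.0-fold. Preparations 1, 2 and 3 gave 4.75, 4.57 and 3.84. By p-value the probe ranked 18 among all on the array. The study had already listed *Pttg1* among its top upregulated genes from these same arrays, so this ratio is no independent result. The 10 spots also show how well a level was read on each array. Their SD was between 0.07 and 0.09 on 5 arrays and 0.47 on quiescent array 2, where single spots ran from 6.92 to 8.35.

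*Espl1* encodes separase, the protease that opens the ring at anaphase. Its brighter probe (chromosome 7 of rn4, 141074166 to 141074225) read 10.31, 10.20 and 10.07 on the replicating arrays and 7.11, 6.41 and 7.42 on the quiescent arrays. Its other probe (chromosome 7, 141048190 to 141048249) read 9.67, 9.07 and 8.75 on the replicating arrays and 6.39, 6.31 and 6.28 on the quiescent arrays, where it was well above background on 2 of the 3. Both probes separated the groups without overlap. The brighter gave a ratio of 3.21 (standard error 0.36, adjusted p = 0.170 in limma), or 9.27-fold, and the other 2.84 (standard error 0.34, adjusted p = 0.173). In preparations 1, 2 and 3 the ratio was 3.20, 3.78 and 2.66 by the brighter probe and 3.29, 2.76 and 2.47 by the other. The smallest ratio of separase or securin in any preparation by any of these probes was thus 2.47.

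The promoters of *Pttg1*, *Espl1* and *Cdca5* are shown because these regulators were called higher. That of *Smc3*, a ring subunit that was called higher too, is shown because it alone, of the 8 promoters found, held none of the words searched. The windows run from 250 bases before to 50 after the annotated start, 5′ to 3′ along the gene, from RefSeq on the build GRCr8. Capitals mark every match, on either strand, to the words of the cell cycle homology region known from late cell-cycle genes (TTTGAA and TTCGAA), to CCAAT, and to E2F words (TTTGGCGC, TTTCCCGC, TTTGCCGC, TTTCGCGC).
Pttg1, chr10:28406277-28406576, minus strand: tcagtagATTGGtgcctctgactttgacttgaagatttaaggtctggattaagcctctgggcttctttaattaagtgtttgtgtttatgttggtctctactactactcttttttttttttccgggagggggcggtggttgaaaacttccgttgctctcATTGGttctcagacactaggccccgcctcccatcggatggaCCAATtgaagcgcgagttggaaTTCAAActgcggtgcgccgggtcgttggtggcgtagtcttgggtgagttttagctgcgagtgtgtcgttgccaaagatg
Espl1, chr7:135302466-135302765, plus strand: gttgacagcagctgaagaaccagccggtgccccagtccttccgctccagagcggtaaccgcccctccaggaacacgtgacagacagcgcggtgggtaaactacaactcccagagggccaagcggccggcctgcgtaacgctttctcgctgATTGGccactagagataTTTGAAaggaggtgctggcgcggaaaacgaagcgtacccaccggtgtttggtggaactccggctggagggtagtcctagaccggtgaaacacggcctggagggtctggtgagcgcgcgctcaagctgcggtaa
Cdca5, chr1:212807613-212807912, plus strand: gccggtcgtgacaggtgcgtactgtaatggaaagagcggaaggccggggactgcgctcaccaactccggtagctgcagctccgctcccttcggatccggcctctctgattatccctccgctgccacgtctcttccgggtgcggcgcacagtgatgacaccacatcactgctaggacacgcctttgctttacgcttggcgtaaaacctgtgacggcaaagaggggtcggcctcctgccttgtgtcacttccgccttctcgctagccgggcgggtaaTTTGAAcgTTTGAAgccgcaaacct
Smc3, chr1:262606841-262607140, plus strand: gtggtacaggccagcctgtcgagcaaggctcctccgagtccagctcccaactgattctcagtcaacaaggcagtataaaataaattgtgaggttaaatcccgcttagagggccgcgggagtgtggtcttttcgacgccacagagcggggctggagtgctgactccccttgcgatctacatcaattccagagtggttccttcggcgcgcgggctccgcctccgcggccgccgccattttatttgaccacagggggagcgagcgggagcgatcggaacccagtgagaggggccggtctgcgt
The *Pttg1* window held 3 CCAAT words and a TTTGAA on the opposite strand that starts 29 bases before the annotated start. The *Espl1* window held a CCAAT and, 83 bases before the start, a TTTGAA. The *Cdca5* window had a pair of TTTGAA words just after the start and no CCAAT, and the *Smc3* window had none of the words. In all, 8 of the 10 genes had a promoter in the table, and those of the ring and accessory genes *Smc1a*, *Stag1*, *Stag2* and *Pds5b* each held a match. Words of the homology region were found in 4 of them (*Pttg1*, *Espl1*, *Cdca5* and *Pds5b*), against 19.7% of all 33469 promoters, and CCAAT in 5, against 37.5%. Both occurred together in 2 of the 8, *Pttg1* and *Espl1*, and in 7.95% of all. An E2F word was found in *Smc1a* and *Stag1*, and in 2.14% of all promoters. The *Pds5b* word, the only match in its window, starts 17 bases after the annotated start and follows an ATG, so it may lie in coding sequence. That window has 35% GC, against 48.3% to 74% in the other windows, and whether it is a promoter was not tested. A match is a match of letters only, and binding was not measured.

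*Cdca5*, sororin, was measured by 5 probes that did not give a single answer. The ends of the probes are shown because the probes disagree and a pair of them overlaps. The last 30 of the 60 bases of each probe follow, numbered from the brightest, with bases that it shares with another *Cdca5* probe in capitals.
Cdca5 probe 1: gatttcaaataaactttttagaattttgta
Cdca5 probe 2: CAGCATCCAGCGTATTCCCAGAAGATTCAT
Cdca5 probe 3: CGTATTCCCAGAAGATTCATacaggaatgc
Cdca5 probe 4: gagaatcagttcgtggatcaggatgactgg
Cdca5 probe 5: gctgagcagtttgagcttctgattgaatga
Probes 2 and 3 share 50 of their 60 bases, shifted by 10, so they are close to a repeat measurement. The files tie probes 2, 3 and 4 to the curated transcript and probes 1 and 5 to a predicted variant, placed on chromosome 1 of rn4 at 210246212 to 210246271 and 210247270 to 210247329. Probe 1 read 10.66, 10.94 and 10.82 on the replicating arrays and 8.67, 10.80 and 8.41 on the quiescent arrays. Quiescent array 2 was thus level with the replicating arrays, and its 2 spots of that probe, at 10.53 and 11.06, both lay there. Probe 1 gave 1.52 (standard error 0.53, adjusted p = 0.475 in limma), or 2.87-fold, from 1.99, 0.15 and 2.42.

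The overlapping pair showed another preparation as the odd one. Probe 2 gave a ratio of 1.47 (standard error 0.49), with 0.29, 1.71 and 2.41, and probe 3 gave 1.61 (standard error 0.53), with 0.20, 2.35 and 2.28. In both, every replicating array lay above every quiescent array and preparation 1 had the smallest ratio. Both were called. Probe 4 read 7.47, 7.50 and 7.72 on the replicating arrays and 7.68, 10.66 and 6.76 on the quiescent arrays. The estimate of -0.81 (standard error 0.82, adjusted p = 0.643) was made up of -0.22, -3.16 and 0.96, so its sign rested on quiescent array 2. Probe 5, dimmest of the 5, lay between 6.67 and 7.04 on all 6 arrays and had a ratio of 0.05 (standard error 0.33). On quiescent array 2, probes 1 and 4 were high and probes 2 and 3 were not. With preparation 2 left out, probe 1 gave 2.21 (standard error 0.41). With preparation 3 left out it gave 1.07 (standard error 0.59) and was no longer called.

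**Figure D2:**
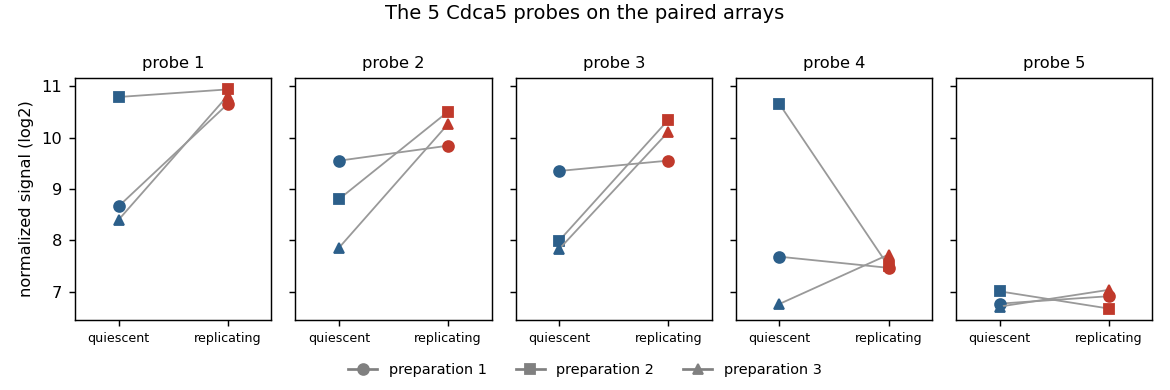
Normalized log2 signal of the 5 *Cdca5* (sororin) probes, brightest first, on the quiescent and replicating arrays, with lines joining the arrays of 1 preparation. Probes 1 to 3 are higher in the replicating cells of every preparation by unequal amounts, probe 4 stands at 10.66 on quiescent array 2, and probe 5 lies between 6.67 and 7.04 throughout.

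*Esco2*, the acetyltransferase of S phase, was near the low end of the signal. Its brighter probe (chromosome 15 of rn4, 45239891 to 45239950) read 7.61, 7.71 and 7.86 on the replicating arrays and 7.04, 6.95 and 6.73 on the quiescent arrays. The groups did not overlap, yet the ratio of 0.82 (standard error 0.32, adjusted p = 0.475 in limma), or 1.77-fold, was below the log2 threshold of 1. It was 0.57, 0.76 and 1.13 in the preparations. The other probe gave 0.66 (standard error 0.35) and was well above background on 2 quiescent arrays. Signals this low are compressed by the offset that the background correction adds: at an offset of 0 the brighter probe gave 1.29 (standard error 0.51) and was called. Scaling to the 75th percentile moved it the other way, to 0.30 (standard error 0.54), and the processed signal gave 0.70 (standard error 0.96). The brighter *Espl1* probe, also low on the quiescent arrays, went from 3.21 to 4.06 at an offset of 0 and to 2.97 with 75th percentile scaling.

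Among the ring subunits, *Smc1a*, *Smc3* and *Rad21* were each read by 1 probe and each called higher. *Smc1a*, an ATPase arm of the ring, read 12.51, 12.14 and 12.06 on the replicating arrays and 10.98, 10.77 and 11.23 on the quiescent arrays. The groups were clearly apart and the quiescent arrays close together. A ratio of 1.24 (standard error 0.33), or 2.37-fold, came from 1.53, 1.37 and 0.83. *Smc3*, the other arm and the target of Esco2, read 10.03, 10.63 and 9.68 on the replicating arrays and 8.21, 6.93 and 9.14 on the quiescent arrays. Over quiescent cells the ratio was 2.02 (standard error 0.65), or 4.06-fold, spread over 1.83, 3.70 and 0.54. The largest value stood with the lowest quiescent array, 2, and the smallest with the highest, 3, and without preparation 2 the ratio was 1.18 (standard error 0.46). *Rad21*, the subunit that separase cuts, read 8.95, 8.51 and 8.97 on the replicating arrays and 6.50, 6.07 and 7.70 on the quiescent arrays. Replicating cells were higher by 2.05 (standard error 0.39, adjusted p = 0.435 in limma), or 4.14-fold, from 2.44, 2.44 and 1.26. The gene was called under all 15 alternatives tried, 1 of which repeated the deposited values. Its quiescent levels were low, and over the alternatives its ratio ran from 1.70 to 3.17, the largest at an offset of 0. The adjusted p of *Smc1a* and *Smc3* was 0.475. The files place these probes at 41547155 to 41547214 on chromosome X (*Smc1a*), 259865163 to 259865222 on chromosome 1 (*Smc3*) and 88268550 to 88268609 on chromosome 7 (*Rad21*) of rn4.

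*Pds5b*, which binds the ring and recruits both its protector sororin and its release factor, had 3 probes on chromosome 12. The brightest (4052728 to 4052787 in rn4) read 11.33, 11.32 and 10.98 on the replicating arrays and 9.51, 7.66 and 10.24 on the quiescent arrays. The replicating arrays were again alike and the quiescent arrays were not. The ratio came to 2.07 (standard error 0.61, adjusted p = 0.475 in limma), or 4.20-fold, from 1.82, 3.65 and 0.74. The next probe (4038529 to 4038588) gave 1.53 (standard error 0.48), with 1.73, 2.48 and 0.40 in the same order of size. The dimmest, made for a predicted variant (4049409 to 4049468), gave 0.48 (standard error 0.31) and was not called. Without preparation 2 the brightest gave 1.28 (standard error 0.45), and with quiescent array 2 alone left out of an unpaired fit, 1.33 (0.30).

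The STAG subunits, alternative partners of the ring, were not called. *Stag2* (chromosome X of rn4, 2840214 to 2840273) read 10.85, 10.80 and 10.34 on the replicating arrays and 10.01, 7.05 and 11.00 on the quiescent arrays. Quiescent array 3 was the highest of all 6 and quiescent array 2 the lowest. A ratio of 1.31 had a 95% interval from -0.88 to 3.51 (adjusted p = 0.512 in limma) and was 0.84, 3.75 and -0.66 in the preparations. Without preparation 2 it was 0.09 (standard error 0.48), and without preparation 3 it was 2.30 (0.80) and was called. *Stag1* (chromosome 8, 105919781 to 105919840) read 9.09, 6.49 and 9.50 on the replicating arrays and 8.18, 6.64 and 10.10 on the quiescent arrays. Both arrays of preparation 2 were low and both of preparation 3 high, so the preparations differed far more than the groups. On replicating array 2 the probe was not well above background. Its ratio was 0.06 with a 95% interval from -0.99 to 1.10 (adjusted p = 0.958 in limma).

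**Figure D3:**
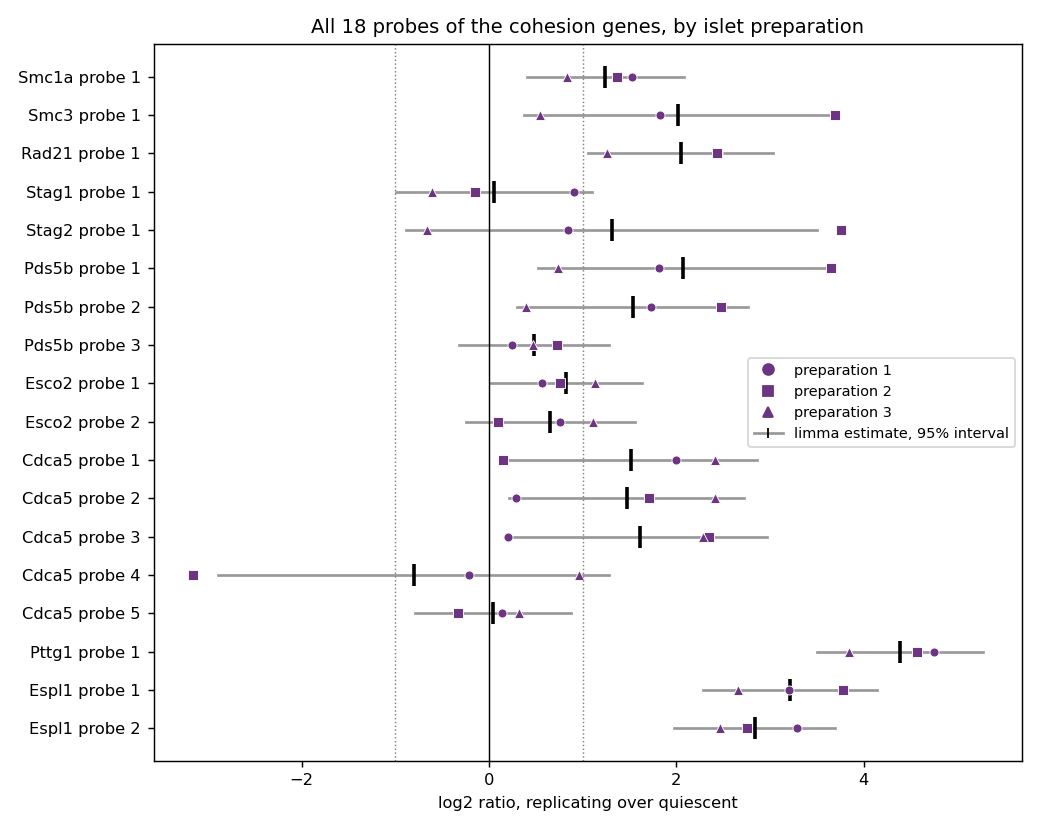
Log2 ratio of replicating over quiescent β-cells for all 18 probes, with 1 symbol per islet preparation, the limma estimate as a black tick and its 95% interval as a grey bar; dotted lines mark the log2 threshold of 1. *Pttg1* and *Espl1* lie at 2.47 or above in every preparation, while *Smc3*, *Stag2* and the brightest probe of *Pds5b* are largest in preparation 2 and smallest in preparation 3.

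Most of the genes varied more among the quiescent arrays. In 9 of the 10 genes the SD among quiescent arrays was larger than among replicating arrays, as it was for 86.9% of all gene names. For the 6 subunits of the ring and its partners (*Smc1a*, *Smc3*, *Rad21*, *Stag1*, *Stag2* and *Pds5b*), quiescent array 2 was the lowest of its group in 6 and quiescent array 3 the highest in 6, and preparation 3 gave the smallest ratio in 6. Over all gene names quiescent array 2 was lowest in 37.9%, quiescent array 3 was highest in 34.6%, and preparation 3 gave the smallest ratio in 34.8%. A ratio falls as its quiescent level rises, so the count for preparation 3 is not separate from the count for quiescent array 3. The median ratio of the 6 was 1.67, 3.04 and 0.64 across the preparations in order. For the other 4 genes (*Esco2*, *Cdca5*, *Pttg1* and *Espl1*) it was 2.60, 2.27 and 2.54. Among these 4, *Pttg1* and *Espl1* also had their highest quiescent level on array 3 and their smallest ratio in preparation 3. *Espl1* was also lowest on quiescent array 2. By their brightest probes *Esco2* and *Cdca5* instead had their largest ratio in preparation 3, so the pattern was not confined to the 6 subunits. The range of a gene's ratio over preparations ran from 0.69 for *Smc1a* to 4.41 for *Stag2* among the 6, and from 0.56 for *Esco2* to 2.27 for *Cdca5* among the 4. These are descriptions of 3 preparations and no test was made of the difference between the sets.

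Genes with profiles most like *Pttg1* and *Smc3* over the 6 arrays were sought among 22974 gene names, by the Euclidean distance of log2 levels after each probe was centred on its own mean. Nearest to *Pttg1* were *Kif20b* at a distance of 0.46, *Ncaph* at 0.54, *Spag5* at 0.69, *Nsl1* at 0.75 and *Hmmr* at 0.75, where the median distance was 5.60. Because the search picks like profiles, their ratios were bound to be near that of *Pttg1*, and they lay between 3.92 for *Hmmr* and 4.81 for *Spag5*. *Kif20b*, *Spag5* and *Nsl1* encode a mitotic kinesin, a spindle protein and a kinetochore protein, and *Ncaph* encodes a condensin subunit. *Kif20b*, *Spag5* and *Ncaph* are also among the top upregulated genes that the study listed. Nearest to *Smc3* were *RGD735065* at 0.36, *Mafk* at 0.38, *Maml2* at 0.41, *Tmpo* at 0.43 and *LOC103693385* at 0.44, with a median distance of 3.20. Picked for their likeness to *Smc3*, these 5 had ratios between 3.30 and 3.91 in preparation 2 and between 0.20 and 0.54 in preparation 3. *Mafk* is a small Maf transcription factor, *Maml2* a Notch coactivator and *Tmpo* a nuclear envelope protein.

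Of 27 further genes of sister chromatid cohesion listed by role, 26 were on the array, 12 were called higher and 0 lower, where 4.24% and 4.69% of all gene names were. Their median ratio was 1.21, against -0.13 over all gene names. The list was drawn up with earlier results of these data known. *Plk1*, *Bub1* and *Cdk1* on it are among the top upregulated genes that the study reported from these arrays, so these values describe the list and are no independent test. All of the 12 had a role at the replication fork, at the centromere or around separase activation. At the fork, 5 of 7 were called: *Dscc1* (2.82), *Ddx11* (2.63), *Timeless* (2.53), *Chtf18* (1.74) and *Wdhd1* (1.5), which include subunits of the alternative clamp loader, a helicase and fork protection factors. *Chtf8* (-0.13) and *Tipin* (0.60) were not called. *Dscc1* and *Ddx11* each had another probe that was not called, with ratios of 0.39 and 0.49, and the remaining *Ddx11* probe gave 2.36 and was called. Of the genes that protect cohesion at the centromere, 3 of 3 were called: the shugoshins *Sgo1* (1.29) and *Sgo2* (3.1), and *Haspin* (2.98), a histone kinase, which the array files list under the older names *Sgol1*, *Sgol2* and *Gsg2*. The *Sgo2* fit left out preparation 2, where a spot was marked as an outlier, and *Sgo1* was well above background on 2 of 3 quiescent arrays.

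Of the genes around separase activation, 4 of 6 were called: the kinases *Plk1* (5.12), *Bub1* (4.72) and *Cdk1* (4.38), and cyclin B1, *Ccnb1* (3.38). *Cdc20* and *Fzr1*, the activators of the complex that destroys securin, were not called. *Cdc20* had a ratio of -0.21 (standard error 0.56), with -1.02, -0.92 and 1.32 in the preparations, and *Fzr1* -0.24 (standard error 0.54), with -0.01, -1.59 and 0.89. Both changed sign between preparations. None of the loaders (*Nipbl*, *Mau2*), the release factors (*Wapl*, *Pds5a*) or the Smc3 acetylation enzymes other than *Esco2* (*Esco1*, *Hdac8*) was called by its brightest probe, with ratios from -0.56 for *Hdac8* to 1.13 for *Pds5a*. The second probe of *Pds5a* gave 1.29 (standard error 0.47) and was called. The further probes of *Nipbl*, *Mau2*, *Wapl*, *Esco1* and *Hdac8* were not called, with ratios from -0.55 for *Mau2* to 0.97 for *Esco1*. *Ctcf*, which stops the ring at loop anchors, had 1.82 (standard error 0.77), with 1.56, 3.90 and -0.02 in the preparations, the same order as *Smc3*. The meiotic subunits *Stag3*, *Smc1b* and *Rec8* had ratios between -0.36 and 0.22, and 0 of the 3 were called; *Stag3* was fitted without preparation 2, where a spot was missing.

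**Figure D4:**
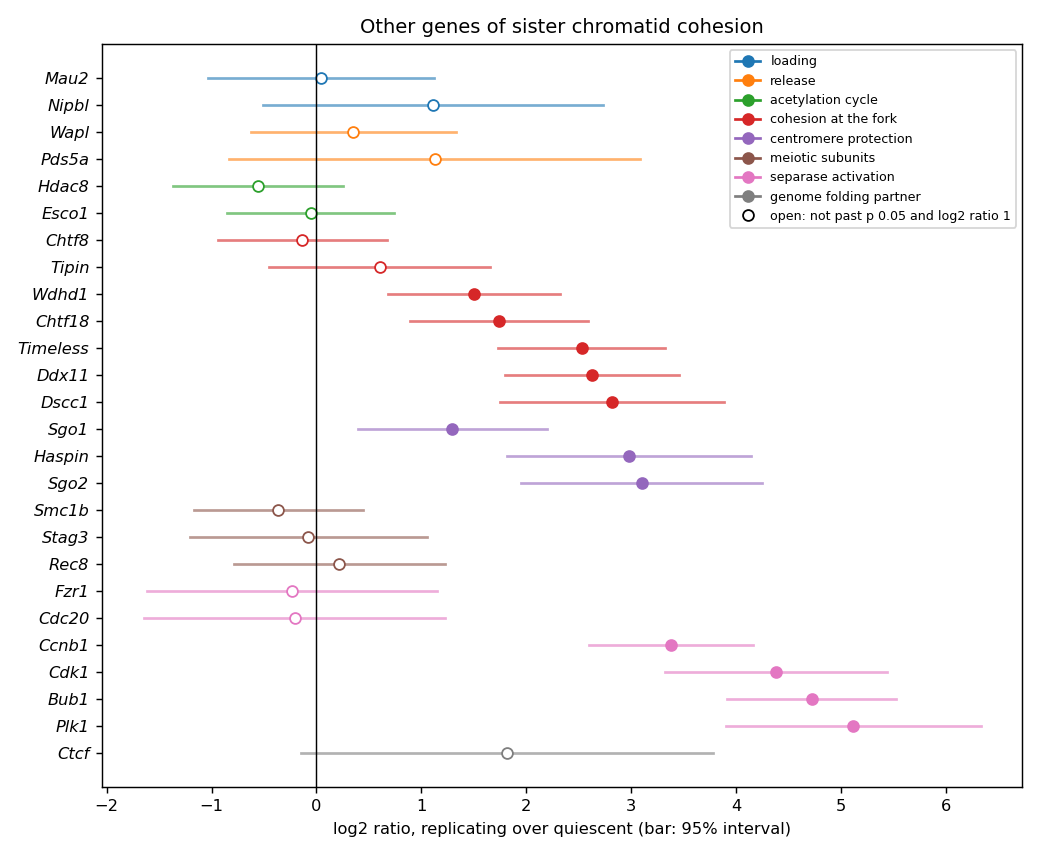
Log2 ratio of replicating over quiescent β-cells for the 26 other genes of sister chromatid cohesion, brightest probe each, coloured by role, with 95% intervals from limma and filled points where the gene was called. The filled points, all fork, centromere and separase activation genes, reach from 1.29 to 5.12, and the intervals of loaders, release factors, acetylation enzymes and meiotic subunits span 0.

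**Figure D5:**
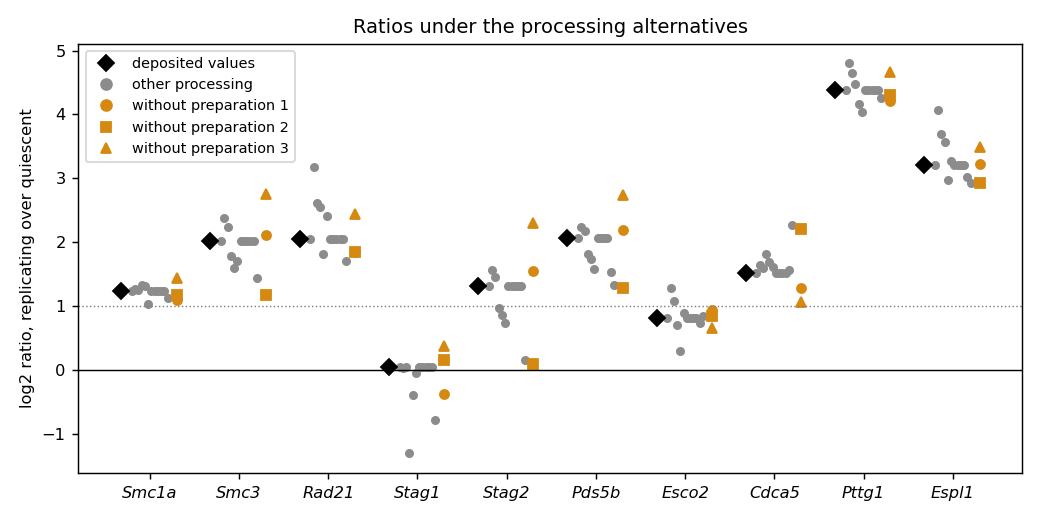
Log2 ratio of each of the 10 genes from the deposited values (black) and under the 15 alternatives: other processing or arrays (grey) and each preparation left out (orange). *Pttg1* stays between 4.04 and 4.80 and *Espl1* between 2.93 and 4.06, *Stag1* changes sign, and *Smc3*, *Pds5b* and *Stag2* drop most without preparation 2.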

How the data were processed

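Total RNA from sorted, fixed β-cells was amplified by whole transcriptome amplification, given a Cy3 label and put on 1-colour Agilent arrays, 1 per sample, all on 1 slide and in the same scan, so that no slide block was fitted. The authors read the arrays with Feature Extraction 10.7.3.1; its deposited intensity values carry no normalization between arrays, and its probe positions are on rn4. The log2 values used here, which the authors deposited for each spot, had been corrected by normexp and quantile normalized. They differed by at most 0.000245 from values computed here from the scanner signals at an offset of 50, on every array. Outlier spots were left missing, and the remaining spots of each probe were averaged. A gene with several probes is represented by the brightest over the 6 arrays, and every probe of the 10 genes is given. The accessions of 15 of the 18 probes matched the same symbol in RefSeq genes of GRCr8 (3 had no match).

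limma 3.58.1 in R 4.3.3 was fitted to all 45598 probes blocked by preparation, the paired design of the study, and p-values were adjusted by Benjamini-Hochberg over all probes. The pairing comes from the labels and methods; within a pair, what each array differed by from its group mean correlated at 0.0561, 0.242 and 0.258 over the probes. An exact permutation test over samples could not go below p = 0.25 paired or 0.1 unpaired. The number of arrays limits the precision. On simulated data for this comparison, 45598 probes, 74% of probes changed by 1.5 and 95% of those changed by 3 on the log2 scale were called, as were 3.72% of unchanged probes. The members and lists were chosen with earlier results of these data known. The genes named by a rule set beforehand are the 10, those of the cohesion list that were called, and the 5 nearest in profile to *Pttg1* and to *Smc3*. Others of the cohesion list, and the single cell type markers, were named after their values were seen. Not every marker that was called is named. Figures were drawn with matplotlib 3.10.9. Alternatives were the deposited values recomputed from the scanner signals, other normexp offsets, the processed signal, other normalizations, a filter on dim probes and no block. Further ones were outlier spots kept, the median over probes, a variance trend and each preparation left out. Another, chosen after seeing the data, left out quiescent array 2 together with the block.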

Additional observations from a re-analysis of the deposited data

How the results depend on the processing

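Over the 10 genes and 15 alternatives, 134 ratios kept their direction and their side of the threshold, 3 became called, 8 were no longer called and 5, all of *Stag1*, changed sign. Among the 134 were all 10 from the recomputed deposited values, which could not differ. The filter on dim probes, kept outlier spots, no block and the variance trend left every ratio as it was, so only calls could change there. The median over probes did the same for the 6 genes with 1 probe. *Stag1*, near 0 in the reported fit, turned negative with the processed signal (-1.30), with scaling to the 75th percentile (-0.39), with cyclic loess (-0.050), without preparation 1 (-0.37, and 0.38 without preparation 3) and without quiescent array 2 in a fit with no block (-0.78). With no replicate block in place of the pairing the ratios were the same but *Cdca5* was no longer called (standard error 0.64), leaving 6 genes; *Smc1a* and *Cdca5* were also lost with the processed signal. With each preparation left out, between 3 and 7 of the 10 were called higher and 0 lower; the cohesion list had 10 to 14 genes higher, 0 lower, and a median between 0.81 and 1.57; and over all probes 518 to 5112 were called higher, 63 to 5633 lower and 0 to 84 had an adjusted p under 0.05. The cohesion median was 1.76 and 1.62 at normexp offsets of 0 and 16, and 0.74 with both quiescent array 2 and the block left out.

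Over all probes, 2023 were called higher and 1905 lower, or 51.5% higher among those called. At the same thresholds the study reported more genes in each direction, with a larger excess of higher ones. Why these counts differ was not tested. The processed signal gave 662 higher and 3193 lower (17.2% higher), and 75th percentile scaling 1596 and 5862 (21.4%), where the median ratio of all probes was -0.71 and -0.39 in place of -0.07. Leaving out the block gave 878 lower, and leaving out the block and quiescent array 2 together gave 267. Probes at an adjusted p under 0.05 numbered 719 with 75th percentile scaling, 204 with cyclic loess, 99 with no block, 61 with a variance trend and 151 with neither the block nor quiescent array 2. *Pttg1* was among them in 6 of 15 alternatives, *Espl1* in 4 and *Cdca5* in 1, that with neither the block nor quiescent array 2; the other 7 were in 0. The cause of these shifts was not tested.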
